A study of Mus musculus with 11 samples.

Results

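Gene desert peaks are stretches of open chromatin that lie between genes, far from any place where transcription begins. They were taken here as the peaks annotated as distal intergenic whose distance to the assigned transcription start site was at least 500 kb. By this rule 474 of 94410 peaks were members, which is 0.502% of all peaks and 1.41% of the 33664 distal intergenic peaks. Another 75 peaks were as far from a start site but lay in introns of long genes and were left out.

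The study profiled chromatin accessibility by ATAC-seq, in which a transposase cuts open DNA and tags it for sequencing, in mouse haematopoietic stem cells (HSCs), the rare bone marrow cells that renew the blood. All 11 libraries carried the genotype Gfplc3/Gfplc3, a reporter that adds GFP to LC3, the protein that coats autophagosomes, and all were isolated at steady state. Young HSCs were not fractionated and gave 5 libraries, while old HSCs were sorted by GFP into AThi (GFPlo) and ATlo (GFPhi) cells, with 3 libraries each. Autophagy degrades the reporter, and the label AThi stands for cells that engage it. The labels number the old libraries in 3 pairs and tell of 2 isolation days, but which day, sex, age in numbers or animals lie behind each library is not stated in the labels used here. Age and fractionation therefore cannot be told apart in the comparisons with young HSCs, and p-values measure the spread between libraries, which may be technical.

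A gene desert is a long interval with no protein-coding gene. Some deserts hold enhancers, short elements that bind transcription factors and act on a promoter across great distances, and deserts that flank developmental regulators are the best known of these. Enhancers are usually open in the cell types that use them, which is why their accessibility differs more between cell types than that of promoters. The gene assigned to a desert peak is the one with the nearest start site, and an ATAC-seq peak does not measure that gene's expression. In a library made from many cells, a peak that is open in more cells and a peak that is more open in each cell cannot be told apart.

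The label "gene desert" held for most members. For 463 members a gene of the authors' annotation lay on each side. The gap from the end of the left gene to the start of the right one was 627.5 to 8599 kb (median 1484 kb). For 457 of these members the same interval could be read in the RefSeq table of gene order. Of the 457, 400 had no protein-coding gene between the flanks and 57 had at least 1. A further exception was formed by 21 members that lay among the gene segments of antigen receptors: 16 on chromosome 14 between Gm30214 and Dad1, where the RefSeq table lists 159 receptor segments, and 5 on chromosome 6 on either side of Rprl1, with 85 and 82 segments. Members lay up to 1930.7 kb from their start site (median 626 kb), 219 upstream of it and 255 downstream.

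The HSC label was checked on promoters, since no values per library, and so no depth, were among the files analysed here. Of 12 HSC markers, 11 had a promoter peak in the authors' deposited tables, with Mecom, a factor that HSCs need, at a mean normalised count of 414 and Kit at 342, and Ly6a had none. The 12 include Cd48 and Flt3, which are low in HSCs and yet had promoter peaks, at 24.5 and 16.0. Median promoter levels were 77.1 for the HSC list, 85.3 for T cell, 35.1 for B cell and 45.4 for myeloid markers. For erythroid markers the median was 227, and for endothelial and stromal ones 97.2. Promoter peaks were found for 2 of 6 T cell markers, 4 of 6 B cell markers, 4 of 7 myeloid markers, 3 of 5 erythroid markers and 6 of 6 endothelial and stromal markers. No promoter peak lay at Cd3e, Cd3d, Cd3g, Cd8a, Cd79a, Ms4a1, S100a8, S100a9, Ly6g, Hbb-bs or Hba-a1. The highest promoter levels outside the HSC list in the authors' deposited tables were 304 at Csf1r, 229 at Epor and 227 at Klf1, the endothelial and stromal ones ranged from 28.2 to 130, and a promoter can be open in a cell that does not transcribe the gene. The part of other cell types in the results was not tested.

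Desert peaks were weak and narrow. Their median level, the authors' mean normalised count over libraries, was 14.4 in the deposited tables, against 27.5 for all peaks and 92.3 for promoter peaks. Their median width was 467.5 bp (207 to 1996 bp) against 547 bp for all peaks. They were also sparse: the nearest other peak lay at a median of 22.7 kb, against 4.84 kb for all peaks, and 100 members had no other peak within 100 kb. An adjusted p was given for 451 members; the other 23 had levels of at most 5.96 and entered no count of calls. With so few reads per peak the precision was limited: the median 95% interval reached 0.92 log2 units from a member's change between old AThi and young HSCs, and 0.65 units for all peaks.

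Old HSCs of both fractions were more accessible than young HSCs at many desert peaks and less accessible at very few. In the authors' deposited table for old AThi against young HSCs, 83 of the 451 tested members (18.4%) were higher at an adjusted p under 0.05, beside 7.57% of all tested peaks, and 3 (0.665%) were lower, beside 2.74%. In the table for old ATlo against young HSCs, 82 members (18.2%) were higher, beside 6.88% of all tested peaks, and 3 were lower, beside 2.54%. Of the higher members, 74 of 83 in AThi and 72 of 82 in ATlo HSCs rose at least 2-fold. Over all peaks 4616 of 7004 higher calls in AThi and 4154 of 6370 in ATlo HSCs did so. These 4616 and 4154 were 4.99% and 4.49% of all tested peaks. The size of a called change went with level: over all peaks of level 10 to 20, all 1149 higher calls in AThi HSCs were at least 2-fold. Among members of level 50 or more, 4 of 11 were. Only 1 member in each comparison fell at least 2-fold, beside 1.11% and 0.572% of all tested peaks. Both comparisons use the same 5 young libraries, so they are given side by side and neither backs the other.

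The median over all members, called or not, lay above 0. The median log2 change of all 474 members was 0.36 in AThi and 0.35 in ATlo HSCs, while that of all peaks was -0.04 and -0.03 in the authors' deposited tables. Changes above 0 were found for 315 members (66.5%) in AThi and 333 (70.3%) in ATlo HSCs, against 46.3% and 47.0% of all peaks. Of the 130 members under a level of 10, 66 (50.8%) and 73 (56.2%) were above 0, with medians of 0.02 and 0.15. For all peaks of that level the shares were 37.7% and 41.5% and the medians -0.23 and -0.14. Among members called higher the median change was 1.80 in AThi and 1.77 in ATlo HSCs. The members also spread more widely, with a standard deviation over peaks of 0.956 in AThi HSCs against 0.646 for all peaks. Their errors were larger as well, with a median SE of 0.472 against 0.334, and what part of the spread is error was not tested.

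**Figure D1:**
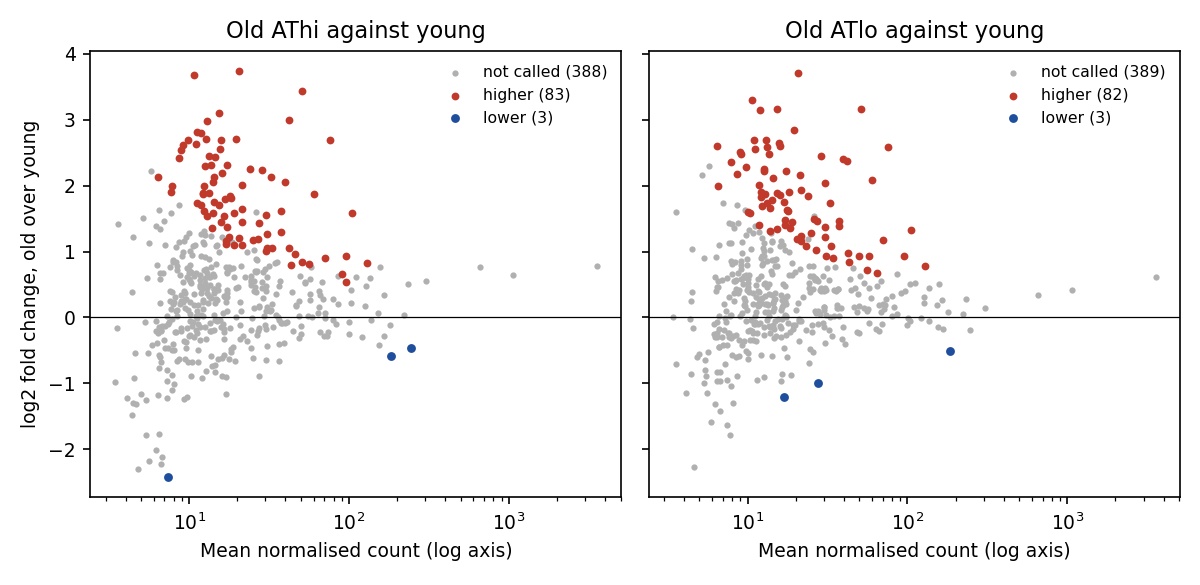
Each point is 1 of the 474 gene desert peaks, placed by its mean normalised count (log axis) and by the authors' deposited log2 fold change of old AThi (left) or old ATlo (right) over young HSCs. Red points are called higher (83 and 82), blue points lower (3 in each panel), and grey points are not called or have no adjusted p; most red points have counts between 10 and 50.

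Without adjustment, 150 members (31.6%) had a p under 0.05 in AThi and 144 (30.4%) in ATlo HSCs, beside 22.4% and 21.7% of all peaks. Between the old fractions no desert peak was called. In the authors' deposited table for AThi against ATlo HSCs, 0 members passed in either direction, beside 0.0% of all peaks, and every adjusted p was 1.00 to 2 decimals. Without adjustment, 7 members (1.48%) had a p under 0.05, beside 1.78% of all peaks. The median log2 difference of AThi over ATlo was -0.02 for members and 0.01 for all peaks. The interval of a single member's difference reached a median of 1.00 log2 unit on each side, so a 2-fold difference between the fractions would often not have been detectable. The smallest p belonged to a weak peak 703 kb from Klhl1 on chromosome 14 (97459789 to 97460129 on the build inferred to be mm39), at a log2 difference of -2.0 (SE 0.74, p = 0.00687 by the authors' DESeq2 test, not passing). A peak near Arl4a followed at -0.80 (p = 0.0141 by the authors' DESeq2 test), then peaks near Gm10745 at -1.17, Gm15501 at -0.81 and 4930441H08Rik at -0.81, none of which passed.

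Among distal intergenic peaks, the share of higher peaks grew with the distance from the start site, and the members were the far end of this order. In the authors' deposited table for AThi against young HSCs, 7.12% of promoter peaks were higher. For distal intergenic peaks it was 5.34% under 20 kb, 7.73% from 20 to 100 kb, 12.2% from 100 to 500 kb and 18.4% at 500 kb or more. The shares for ATlo HSCs were 5.69% at promoters and then 5.28%, 6.78%, 11.7% and 18.2%. Lower calls thinned out along the same order, from 2.74% of tested intergenic peaks under 20 kb to 1.20% from 100 to 500 kb and 0.665% of members in AThi HSCs. The median change of the 5699 distal intergenic peaks at 100 to 500 kb was 0.16 in AThi and 0.18 in ATlo HSCs, between that of peaks closer in and that of the members.

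**Figure D2:**
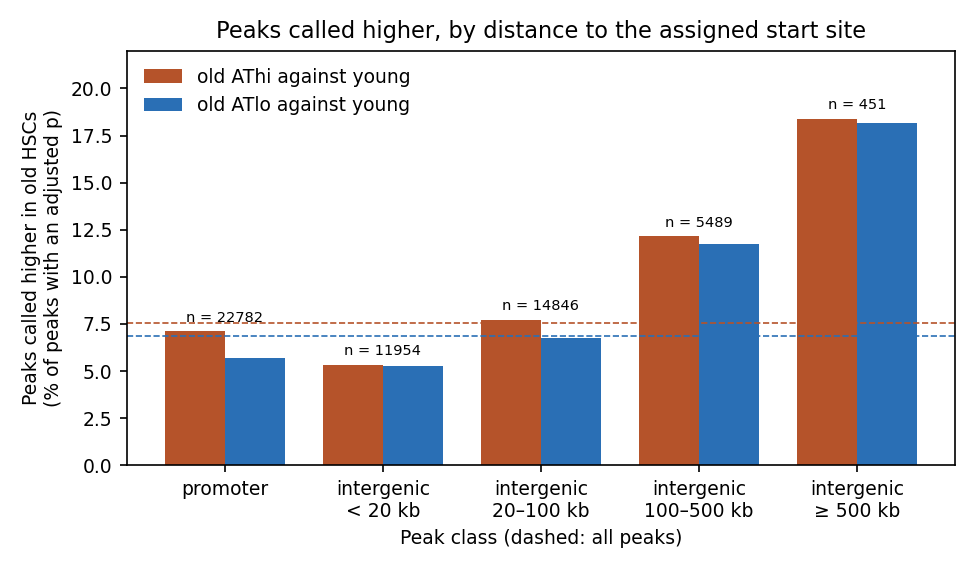
Bars give the percentage of tested peaks called higher in old AThi (orange) and old ATlo (blue) than in young HSCs, for promoter peaks and for distal intergenic peaks by distance to the assigned start site, with the number tested above; dashed lines mark all peaks. The share is lowest under 20 kb (5.34% and 5.28%) and highest at 500 kb or more (18.4% and 18.2%).

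The members were also split by distance. From 500 to 750 kb, 16.4% of tested members were higher in AThi and 14.9% in ATlo HSCs, in the authors' deposited tables, with median changes of 0.34 and 0.35. From 750 to 1000 kb the shares were 16.7% and 21.1% and the medians 0.28 and 0.17, lower than those of the nearer members. Of the 36 members at 1000 kb or more 32 were tested, and 14 of them (43.8%) were higher in each fraction, with median changes over all 36 of 0.77 and 0.71. These 36 peaks lie in few deserts and are not independent of each other. Just inside the limit of 500 kb, the peaks of St6gal2 (500.4 kb), Dmac1 (501.0 kb) and BC006965 (501.6 kb) had log2 changes in AThi HSCs of 0.02, -0.22 and -0.13 in the authors' deposited table. Just outside it, a peak of Nr2f1 at 499 kb was at 1.37, a peak of Gm30214 at 498.5 kb at 0.18 and a peak of Zfp608 at 497.9 kb at 0.84.

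Level moved with distance, so the shares were also read within classes of level. Level is a mean over all libraries, old ones included, so a rise in old HSCs also raises a peak's level. The classes therefore do not separate level from change. Of members with a mean normalised count from 10 to 20, 41 of 178 (23.0%) were higher in AThi HSCs in the authors' deposited table, against 10.3% of distal intergenic peaks at 100 to 500 kb and 4.86% of all peaks of that level. From 20 to 50 the shares were 22.9%, 15.4% and 8.87%. At 50 or more they were 18.03%, 18.3% and 10.3%, so the members' share was above that of all peaks but not above that of peaks at 100 to 500 kb. Under 10, where little can be called, they were 6.54%, 6.26% and 2.61%. For ATlo HSCs the members' shares by level, from low to high, were 6.54%, 21.3%, 25.7% and 16.4%. Those of distal intergenic peaks at 100 to 500 kb were 7.05%, 9.44%, 15.5% and 16.2%, and those of all peaks 2.84%, 4.79%, 8.62% and 8.35%.

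How far a peak lay from its nearest neighbour ordered the members as well. Among members with another peak within 10 kb, 11.5% were higher in AThi and 10.3% in ATlo HSCs, in the authors' deposited tables. The shares were 12.3% and 10.96% at 10 to 50 kb, and 24.5% and 28.3% at 50 to 100 kb. Of the 100 members with no other peak within 100 kb, 34 (35.4% of those tested) were higher in AThi and 35 (36.5%) in ATlo HSCs, and the median change of these lone peaks was 0.73 in both. The same order was seen over all peaks, from 6.82% to 23.6% in AThi HSCs, at a lower share in each class. Lone members thus supplied a large part of the calls: without them 49 members were higher in AThi and 47 in ATlo HSCs, which is 13.8% and 13.2% of those tested.

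**Figure D3:**
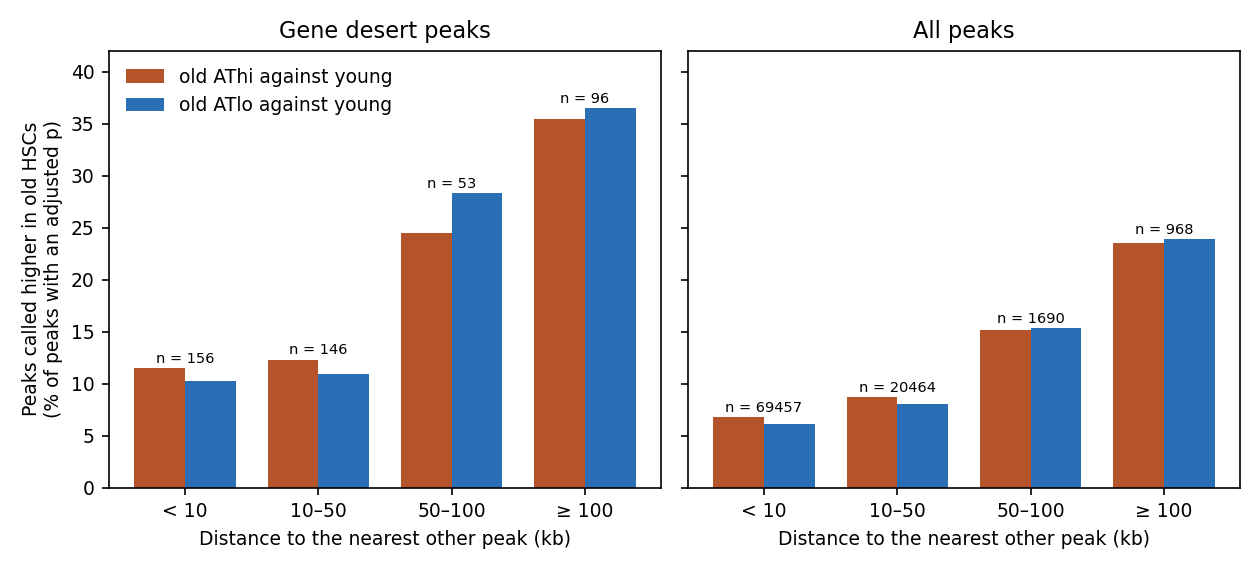
Bars give the percentage of tested peaks called higher in old AThi (orange) and old ATlo (blue) than in young HSCs by the distance to the nearest other peak, for gene desert peaks (left) and for all peaks (right), with the number tested above. The share rises from 11.5% and 10.3% within 10 kb to 35.4% and 36.5% at 100 kb or more among the members, and from 6.82% and 6.09% to 23.6% and 23.9% among all peaks.

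The member with the smallest p in AThi HSCs lay 1244 kb upstream of Nr2f1, an orphan nuclear receptor of neural and cardiac development, on chromosome 13 (79591039 to 79591869). Its level was 51.1, and the authors' deposited tables give it a log2 change of 3.44 (SE 0.32, adjusted p = 1.29e-23 by the authors' DESeq2 test) in AThi and 3.17 (SE 0.32, adjusted p = 7.09e-20) in ATlo HSCs, or 10.9-fold and 8.97-fold. A second member of the same desert, 755 kb from Nr2f1 (79102064 to 79102280), rose by 2.99 (SE 0.32) in AThi and 2.37 (SE 0.32) in ATlo HSCs. Its difference between the fractions, 0.62 (SE 0.31, unadjusted p = 0.0409 by the authors' DESeq2 test), did not pass. The 3 promoter peaks of Nr2f1 stayed between -0.25 and 0.30 in both of the authors' deposited tables, and none was called. With the peak just outside the limit, which rose by 1.37 in AThi (adjusted p = 0.00777 by the authors' DESeq2 test) and 1.60 in ATlo HSCs, 3 peaks spread over this desert were higher in both fractions. Its remaining member, assigned to Arrdc3 at a level of 6.47, was at 1.63 in AThi HSCs and not called, and rose by 2.60 in ATlo HSCs.

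The desert between Gm32810 and Cntnap5a on chromosome 1 had the most members of any stretch whose members were all higher. Cntnap5a encodes a contactin-associated protein, a family of neuronal adhesion molecules. The gap between the flanking genes is 3268 kb long, with no protein-coding gene listed between them. All 6 of its members (113882225 to 114854259) were higher in both fractions, with log2 changes in the authors' deposited tables of 1.81 to 3.10 in AThi and 1.90 to 3.17 in ATlo HSCs. The strongest of them, 1622 kb from Gm32810, had a level of 76.1 and rose by 2.69 (SE 0.26, adjusted p = 1.02e-21 by the authors' DESeq2 test) in AThi and 2.59 (SE 0.26) in ATlo HSCs. Its neighbour 84.3 kb away rose by 3.10 (SE 0.54) and 3.17 (SE 0.53). The other 4, all nearer to Cntnap5a, had levels of 13.0 to 18.2, and the one 758 kb from Cntnap5a rose by 2.98 (SE 0.53) and 2.69 (SE 0.53). The promoter of the long non-coding RNA gene Gm32810 was higher too, at 1.73 (SE 0.41) and 1.65 (SE 0.40) in the authors' deposited tables, and Cntnap5a had no promoter peak. This desert was singled out after its values were seen. Chaining members at gaps of up to 1000 kb, also chosen after the data were seen, gave 139 stretches, of which 86 held more than 1 member, and in 6 of these for AThi and 8 for ATlo HSCs every member was higher.

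**Figure D4:**
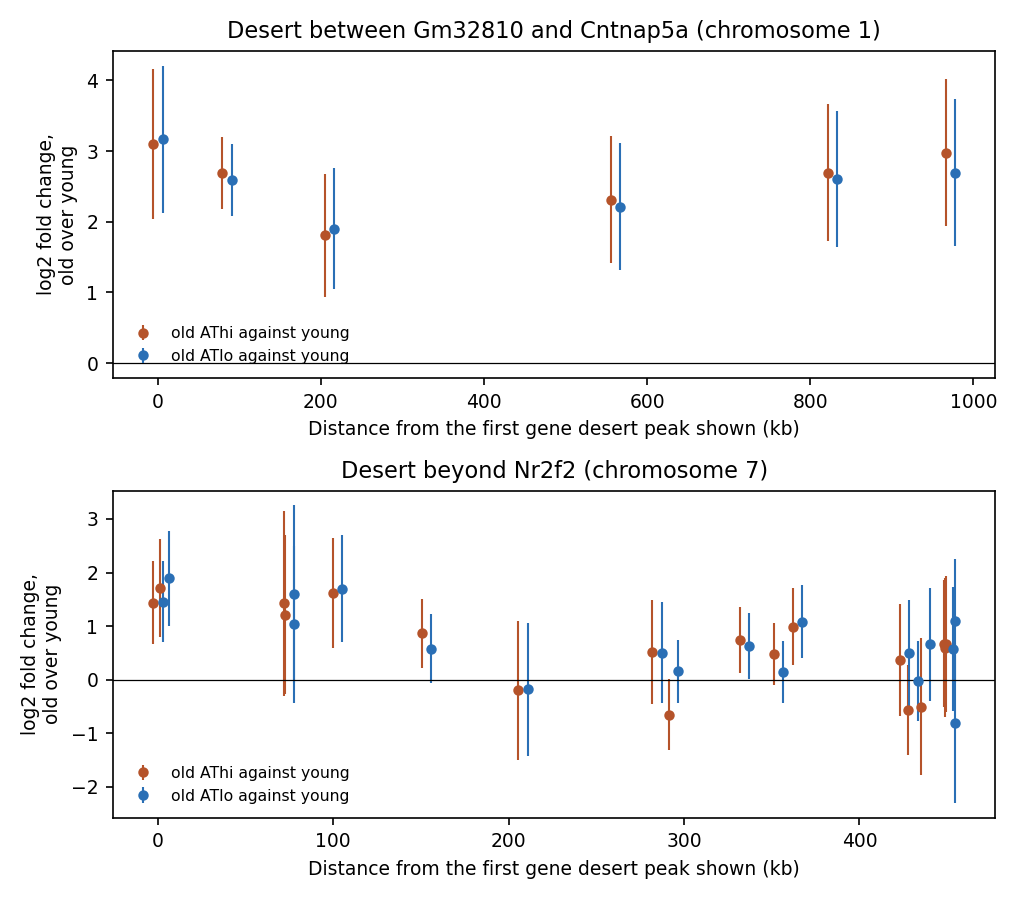
Points give the authors' deposited log2 fold change of old AThi (orange) and old ATlo (blue) over young HSCs, with 95% intervals, for the gene desert peaks of the interval between Gm32810 and Cntnap5a (top, 6 peaks) and of the interval beyond Nr2f2 (bottom, 18 peaks), by distance from the first peak shown, with the fractions drawn slightly apart. All 6 peaks above lie between 1.81 and 3.17, whereas those below run from -0.80 to 1.89 and are highest at the end nearest to Nr2f2.

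The largest change in both fractions belonged to a peak 782 kb upstream of Grm7, a metabotropic glutamate receptor, on chromosome 6 (109840393 to 109840938), which rose by 3.74 (SE 0.47, adjusted p = 8.92e-13 by the authors' DESeq2 test) in AThi and 3.71 (SE 0.47) in ATlo HSCs in the authors' deposited tables. The interval from Edem1 to Grm7 that holds this peak has 1 protein-coding gene listed between its flanks. The promoter of Grm7 was at 1.52 (adjusted p = 0.0526 by the authors' DESeq2 test) in AThi and rose by 2.04 (adjusted p = 0.00249) in ATlo HSCs. A lone peak 1694 kb from Grik2, a kainate receptor subunit, on chromosome 10 (47969425 to 47969974) was 1345 kb from the nearest other peak and rose by 2.01 (SE 0.40) and 2.17 (SE 0.39), while the promoter of Grik2 was at -0.07 and 0.18 and was not called. Of the 9 members at 5 genes of ion channels and neurotransmitter receptors, 3 were higher in AThi and 4 in ATlo HSCs and none was lower. That is 33.3% and 44.4% of only 9 peaks, beside 18.4% and 18.2% of all tested members and 7.57% and 6.88% of all tested peaks. Their median changes were 0.58 and 0.80. Over all 262 peaks of the genes of this list, near or far, 20.2% were higher in AThi HSCs in the authors' deposited table.

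Genes of neuronal adhesion, guidance and synapses held 47 members at 16 genes, of which 8 were higher and 1 lower in each fraction, with median changes of 0.37 in AThi and 0.35 in ATlo HSCs. The higher calls were 17.4% of the 46 tested in each fraction, beside 18.4% and 18.2% of all tested members. Of all tested peaks 7.57% were higher in AThi and 6.88% in ATlo HSCs. Over all 613 peaks of the genes of this list, near or far, the shares were 16.3% and 18.3%. The medians over the whole set of desert peaks were 0.36 and 0.35. The peak 613 kb from Lrrtm1, a synaptic leucine-rich repeat protein, rose by 2.71 (SE 0.43) in AThi and 2.85 (SE 0.42) in ATlo HSCs in the authors' deposited tables. A second peak of Lrrtm1, at 854 kb and a level of 105, rose by 1.59 (SE 0.37) and 1.33 (SE 0.37). A peak of Adgrl2, a latrophilin, was at -0.89 (SE 0.33, adjusted p = 0.0561 by the authors' DESeq2 test) in AThi HSCs and fell by 1.00 (SE 0.31, adjusted p = 0.0224) in ATlo HSCs.

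Developmental transcription factors held 25 members at 7 genes, of which 5 were higher and 0 lower in each fraction, at median changes of 0.68 and 0.47 per the authors' deposited tables. The 5 were 23.8% of the 21 tested, beside 18.4% and 18.2% of all tested members, and over all 837 peaks of the genes of this list 14.1% were higher in AThi HSCs. The Nr2f1 peaks were 2 of the 5, and the other 3 lay in the desert of Nr2f2, the sister gene of Nr2f1 and a regulator of venous identity, on chromosome 7. This was the largest cluster of members when peaks were chained at gaps of up to 100 kb, with 18 peaks over 452 kb (70598204 to 71050371), 6 assigned to Nr2f2 and 12 to the non-coding RNA gene 4930441H08Rik. The interval that holds the cluster, from B130024G19Rik to 4930441H08Rik, has 1 protein-coding gene listed between its flanks, so it is not strictly a desert. The 2 peaks nearest to Nr2f2, at 581.7 and 585.6 kb, rose by 1.44 (SE 0.39) and 1.71 (SE 0.47) in AThi and by 1.46 (SE 0.39) and 1.89 (SE 0.45) in ATlo HSCs, in the authors' deposited tables. Of the 12 peaks assigned to 4930441H08Rik, 0 were higher in AThi and 1 in ATlo HSCs, and their changes in AThi HSCs ran from -0.65 to 0.99. A promoter peak of Nr2f2 rose by 0.95 (SE 0.22) and 1.16 (SE 0.21). Sox11, a neural factor with a desert peak at 1.25 in AThi and 1.01 in ATlo HSCs that was not called, had a promoter peak that rose by 1.92 and 1.79 in the authors' deposited tables.

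**Figure D5:**
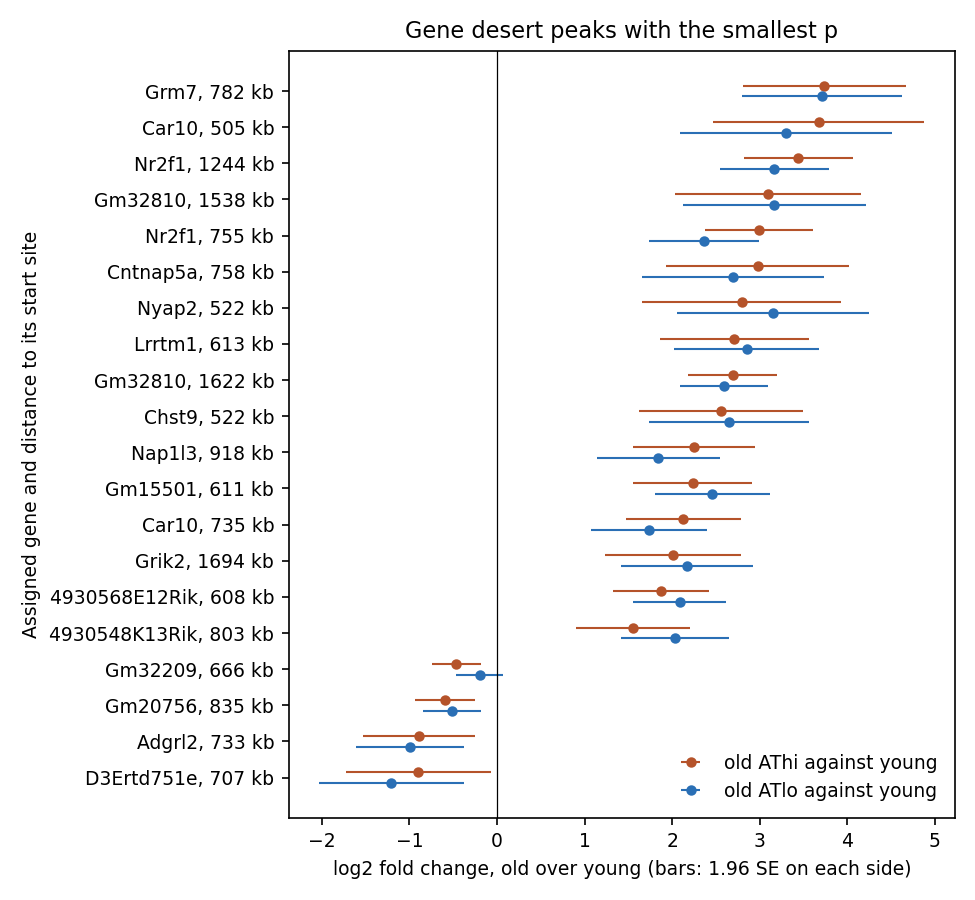
Points give the authors' deposited log2 fold change of old AThi (orange) and old ATlo (blue) over young HSCs, with 95% intervals, for members of a level of at least 10 with the smallest p in each direction, named by the assigned gene and the distance to its start site. Higher members lie between 1.56 and 3.74, and of those on the lower side Gm32209 (-0.46 and -0.20) and Gm20756 (-0.59 and -0.52) have the narrowest intervals.

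Several of the remaining strong changes were at peaks assigned to genes outside the fixed lists. In the authors' deposited tables both peaks of Car10, a carbonic anhydrase-related protein of the brain, rose: the one at 735 kb by 2.13 (SE 0.34) in AThi and 1.73 (SE 0.34) in ATlo HSCs, and the one at 505 kb by 3.67 (SE 0.62) and 3.30 (SE 0.62). A peak 608.5 kb from the non-coding RNA gene 4930568E12Rik on chromosome 9 (12496730 to 12497327) had a level of 60.2 and rose by 1.87 (SE 0.28) and 2.09 (SE 0.27). The peak 611 kb from Gm15501 on chromosome 7 rose by 2.24 (SE 0.35) and 2.46 (SE 0.34). The authors' deposited tables also hold rises at Chst9, a sulphotransferase (2.55 and 2.65), at Nyap2, a neuronal phosphoprotein (2.80 and 3.15), at Nap1l3 on the X chromosome (2.25 and 1.84) and at 4930548K13Rik (1.56 and 2.03). The promoter of Nap1l3, a nucleosome assembly protein, went the other way in AThi HSCs and fell by 0.51 (SE 0.17, adjusted p = 0.0344 by the authors' DESeq2 test). In AThi HSCs the median change was -0.21 over all peaks on the X chromosome and -0.22 over the 2289 strongest promoters. The desert peak of Sgcd, a muscle sarcoglycan, rose by 2.05 (SE 0.52) and 2.41 (SE 0.51) together with its promoter, which rose by 1.93 (SE 0.38) and 2.16 (SE 0.37).

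The lower calls were few. The 2 lower calls in AThi HSCs with the best precision were among the strongest members: a peak 834.7 kb from Gm20756 on chromosome 6 (26766126 to 26767577), at a level of 184, and a peak 666 kb from Gm32209 on chromosome 4 (71209425 to 71210537), at a level of 245. The first fell by 0.59 (SE 0.17, adjusted p = 0.0108 by the authors' DESeq2 test) in AThi and by 0.52 (SE 0.17, adjusted p = 0.0308) in ATlo HSCs, in the authors' deposited tables. The second fell by 0.46 (SE 0.14, adjusted p = 0.018 by the authors' DESeq2 test) in AThi and was at -0.20 (SE 0.14, adjusted p = 0.431) in ATlo HSCs. The median change of the 2289 strongest promoters was -0.22 in AThi and -0.30 in ATlo HSCs. With that median set to 0, neither peak was called in either fraction. On the same scale 117 members (24.7%) in AThi and 139 (29.3%) in ATlo HSCs were higher, beside 13.1% and 16.4% of all peaks. These shares are of all 474 members and 94410 peaks, with p adjusted anew over every peak. The unscaled 18.4% and 18.2% are of the 451 members with the authors' adjusted p. The third lower call in ATlo HSCs was a peak of D3Ertd751e, which fell by 1.21 (SE 0.42, adjusted p = 0.047 by the authors' DESeq2 test) and was at -0.90 in AThi HSCs, and with the promoter median set to 0 the changes at D3Ertd751e and Adgrl2 in ATlo HSCs were -0.90 and -0.69 and did not pass.

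The desert of Klf4, a zinc finger factor of pluripotency and myeloid differentiation, is the one where a gene of the list of HSC and progenitor regulators had members. A cluster of 9 peaks on chromosome 4 (56070453 to 56225143) held 6 peaks assigned to Klf4 and 3 to Actl7b, and 0 of them were called in either comparison. Its strongest peak, 581 kb from Klf4 at a level of 221, had a change of 0.04 (SE 0.15) in AThi and 0.05 (SE 0.15) in ATlo HSCs in the authors' deposited tables. Its 95% interval ran from -0.25 to 0.33 in AThi and from -0.24 to 0.34 in ATlo HSCs, so a 2-fold change lies outside both. Another peak of Klf4, at 538 kb and a level of 68.2, was at 0.53 (SE 0.22, adjusted p = 0.105 by the authors' DESeq2 test) and 0.55 (SE 0.21, adjusted p = 0.0801). Cadherins and protocadherins held 1 member, at Cdh9, which was at 1.34 (SE 0.71) in AThi and rose by 2.00 (SE 0.65) in ATlo HSCs. Of the 743 peaks assigned to genes of cytokines, growth factors and their receptors, 0 were members, beside 0.502% of all peaks. Whether that is fewer than for other genes was not tested.

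Members that lay together did not all share a direction. Chaining at gaps of up to 100 kb gave 209 clusters, 117 of a single peak and 92 of 2 or more that held 357 members. Called members were spread widely: 66 clusters had at least 1 higher member in AThi and 67 in ATlo HSCs, and 36 and 41 of these were single peaks. Of the 92 clusters with 2 or more peaks, 25 had every change above 0 and 5 every change below 0 in AThi HSCs, in the authors' deposited table. In ATlo HSCs these were 36 and 5. Calls differed among the large clusters near the genes with the most members. The 14 peaks near Dach1 and Klhl1 on chromosome 14 (97459789 to 97824722) had medians of -0.02 in AThi and 0.21 in ATlo HSCs with 0 calls, and the 13 peaks of 4930559C10Rik and Sel1l on chromosome 12 had medians of 0.05 and 0.47 with 0 calls. The 12 peaks near Zfp608, a zinc finger gene, and Gramd3 on chromosome 18 had 3 higher members in AThi and 2 in ATlo HSCs, at medians of 0.30 and 0.14. Over all tested members 18.4% were higher in AThi and 18.2% in ATlo HSCs, and over all tested peaks 7.57% and 6.88%.

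The 21 members among antigen receptor segments were described separately. Of 20 tested, 1 was higher in AThi and 0 in ATlo HSCs, with medians of -0.22 and -0.10 in the authors' deposited tables. The 16 peaks between Gm30214 and Dad1 on chromosome 14 (53778843 to 53989508) had medians of -0.21 and -0.09. Without these 21 members, an exclusion chosen after the data were seen, 82 of 431 tested members (19.0%) were higher in each fraction.

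A few members had levels and errors unlike the rest. There were 4 neighbouring peaks on chromosome 2 (98492578 to 98497732), 1194.6 to 1198.5 kb from Lrrc4c, with levels of 1067, 157, 234 and 3567 in the authors' deposited tables, and 3 peaks on chromosome 14 (3050022 to 3053617), assigned to Ube2e2, with levels of 111, 657 and 305. These 7 peaks held 34.0% of the summed level of all members. Their SEs in AThi HSCs were 0.555 to 0.948, against 0.144 to 0.365 for the other 19 members with a level of 100 or more, and over the whole data only 20 of 16380 peaks of such level had an SE above 0.5. None of the 7 was called, and without them 83 members in AThi and 82 in ATlo HSCs were higher. The fifth peak of Lrrc4c, the member farthest from its start site at 1930.7 kb, had a level of 12.9 and changes of 0.37 (SE 0.47) and 0.32 (SE 0.46).

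The promoters of the genes beside these deserts were compared with those of all genes. The 474 members were assigned to 183 genes, of which 113 encode proteins and 57 long non-coding RNAs, and 81 had a single member. A promoter peak on the chromosome of the desert was present for 113 of them. Of these, 22 (19.5%) had a higher promoter peak in AThi and 23 (20.4%) in ATlo HSCs in the authors' deposited tables, beside 9.44% and 7.54% of all genes with a promoter peak. Lower promoter peaks were found at 3 (2.65%) and 2 (1.77%), beside 5.93% and 8.04%. Of the 60 genes with a higher member in AThi HSCs, 30 had a promoter peak and 5 of these (16.7%) a higher one, among them Gm32810, Nr2f2, Plekhb2 and Sgcd. For ATlo HSCs the counts were 60, 29 and 8 (27.6%). At 2 genes, 1700017G19Rik and Nap1l3, the promoter was lower in AThi HSCs while a desert peak was higher.

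The share of higher members differed between chromosomes, which was not tested. On chromosome 1, 15 of 30 members (50.0%) were higher in AThi HSCs, with a median change of 1.46, in the authors' deposited table. Chromosome 10 had 9 of 19 tested members (47.4%). On chromosome 14, with 48 members, 3 of 46 tested (6.52%) were higher, and on chromosome 17, with 18 members, 0 of 16 in AThi and 2 in ATlo HSCs. Over all peaks the share of higher calls was 7.58% on chromosome 1, 7.81% on chromosome 10, 7.06% on chromosome 14 and 5.94% on chromosome 17. Each chromosome holds few deserts, so single deserts weigh heavily in these shares.

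The sex of the animals was not given, and the sex chromosomes were therefore looked at separately. The median change of all 2344 peaks on the X chromosome in AThi HSCs was -0.21 in the authors' deposited table, while the 10 members on it had a median of 0.13 with 2 higher. The single member on the Y chromosome was at 2.27 (SE 1.11, adjusted p = 0.194 by the authors' DESeq2 test). On autosomes alone 81 members were higher in AThi and 80 in ATlo HSCs, at a median of 0.36 in AThi HSCs.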

How the data were processed

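Libraries of 5 young, 3 old AThi and 3 old ATlo HSC samples were sequenced as paired reads of 150 bp, per the labels' protocols. Per the submitters' processing notes, the tools were DESeq2, ChIPseeker, featureCounts, MACS2, BWA, cutadapt and Trim Galore, with no versions or settings. Read shifting, duplicate removal and the merging of peaks are not given in the sources used here, and these steps set which weak peaks exist. The data were 3 tables of the authors' own comparisons, with 0 columns of values per sample. The authors' deposited mean normalised count per peak is a signal averaged over libraries. The authors' deposited log2 fold changes come with SEs, from which 95% intervals were computed on the normal scale. The Wald score is the authors' fold change over its SE. Calls use the authors' p-values as adjusted by them (Benjamini-Hochberg). An adjusted p was given for 92579 of the 94410 peaks in each comparison with young HSCs and for all 94410 between the old fractions. All tables came from 1 fit, since the comparisons added up to within 1.02e-14.

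Members were selected by annotation and distance, and the tables were summarised with Python 3.11.15, pandas 2.3.3 and numpy 2.4.6, with adjustment under the alternatives tested on simulated data. The members, the 6 gene lists and the alternatives were chosen with earlier results of these data known. Of builds, GRCm38 and mm39 are both listed in the submitters' processing notes. Coordinates (1-based) are given as deposited and were inferred to be mm39: 15.2% of peaks lie over their own start sites in the tables, and 273 genes end at the same base in the RefSeq GRCm38.p6 table. That table gave names, matching 20791 of 20810 gene identifiers and all 474 members, and gene order, with intervals matched within 50 kb between builds. No peak sequence was used here. Members were named by a fixed rule: per comparison with young HSCs the 12 higher and 8 lower members with the smallest p, the 5 smallest p where fewer than 5 passed, the 6 highest levels, the 5 farthest, 3 on each side of the limit, the 6 largest clusters, the 6 genes with most members and up to 3 per list. Further members serve as examples and were picked with their values in view. Some items that the rule selects are not reported here.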

Additional observations from a re-analysis of the deposited data

How the results depend on the processing

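No paired analysis was possible because the deposited tables hold no values per library, and leaving out a library was not run for the same reason. Of the counts and medians over members, 90 values under the alternatives stayed near the reported ones (counts within 1.5 times, medians within the 95% interval of the members' median) and 33 moved further. Members higher in AThi HSCs numbered 55 at an adjusted p under 0.01, and 37 in AThi and 38 in ATlo HSCs at a level of at least 20. They numbered 291 and 275 at a limit of 250 kb, 14 and 14 at 1000 kb, 39 and 36 with 1 peak per stretch, 49 and 47 without lone members, and 139 in ATlo HSCs scaled to the strongest promoters. Members lower in AThi HSCs numbered 0 at 0.01, 7 at 0.1, 1 with a 2-fold minimum, 1 scaled to promoters, 13 at 250 kb and 0 at 1000 kb. In ATlo HSCs these were 0, 5, 1, 0, 11 and 0. The median change in AThi HSCs was 0.58 scaled to promoters, 0.77 at 1000 kb and 0.52 with 1 peak per cluster or stretch. In ATlo HSCs it was 0.66, 0.71, 0.51 per cluster and 0.44 per stretch. The median AThi over ATlo difference was -0.11 scaled to promoters. The cause of these moves was not tested, except that other limits change how many peaks enter. For single peaks, 157 values kept their side of the threshold, 6 lost it and 1 gained it. The peaks that lost it were lower calls, at Gm20756, Gm32209, Adgrl2 and D3Ertd751e, scaled to promoters or, for D3Ertd751e, also to all peaks. Exclusions of receptor, high-error and lone members and the stretches were chosen after seeing the data.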
